A study of Saccharomyces cerevisiae with 63 samples.

Results

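The genes of the DNA replication machinery were followed through a synchronised meiosis of budding yeast, Saccharomyces cerevisiae. They are 47 genes taken by name from a list set by function, of 6088 genes in the count table. The table held 46 of them under their gene name, and MCM5 was found by its identifier, YLR274W. Polyadenylated RNA had been sequenced from diploid cells of the SK1 background, a laboratory strain known for fast and efficient sporulation. All 63 libraries came from pCUP-IME1 cells, in which IME1, the gene of the transcription factor that starts meiosis, is induced by copper, so the control strain called WT carries this construct too. The other strains were an ime4 mutant and a pho92 mutant, and the alleles are not given in the labels. IME4 encodes the catalytic subunit of the methyltransferase that makes N6-methyladenosine (m6A) in mRNA, and Pho92 is a reader of m6A with a YTH domain. Cells were moved to sporulation medium (SPO, 0.3% potassium acetate) at 0 h, received 50 µM copper sulfate at 2 h and were collected at 0, 2, 3, 5, 6, 7 and 9 h. The labels do not say whether the 2 h samples were taken before or after the copper. Strain and time make 21 groups with 3 biological replicates apiece. Levels are CPM (reads of a gene scaled to a common library size), on library sizes scaled by the trimmed mean of M-values (TMM), given in the order of replicates 1, 2 and 3. In cultures measured in bulk, a change in the share of cells that express a gene and a change in RNA per cell cannot be told apart.

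Before meiotic recombination, yeast cells copy their genome in premeiotic S phase. The origin recognition complex (ORC) marks replication origins, Cdc6 loads the Mcm2-7 helicase ring on them, and the kinase Cdc7-Dbf4 with Sld2, Sld3, Dpb11, Cdc45 and the GINS complex turns the ring into an active helicase. Polymerase alpha-primase then starts each strand, polymerase epsilon extends the leading strand, and polymerase delta extends the lagging strand on the sliding clamp PCNA, which replication factor C (RFC) loads. Replication protein A (RPA) covers single-stranded DNA, and Rad27 and Cdc9 finish the lagging-strand fragments. In mitotic cells many of these genes are transcribed together at the start of S phase by MBF, a complex of Mbp1 and Swi6 that binds the MluI cell cycle box, ACGCGT.

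The promoters of 6 of the genes are printed because their matches to the MluI cell cycle box, and the absence of a match in MCM7, are set beside the expression values further on. Each run spans 250 bases before to 50 bases after the start codon's first base, 5′ to 3′ in the direction of the gene, from the R64 reference genome of strain S288C. The SK1 sequence may differ from it. Capitals mark each ACGCGT, which is its own reverse complement.
POL1: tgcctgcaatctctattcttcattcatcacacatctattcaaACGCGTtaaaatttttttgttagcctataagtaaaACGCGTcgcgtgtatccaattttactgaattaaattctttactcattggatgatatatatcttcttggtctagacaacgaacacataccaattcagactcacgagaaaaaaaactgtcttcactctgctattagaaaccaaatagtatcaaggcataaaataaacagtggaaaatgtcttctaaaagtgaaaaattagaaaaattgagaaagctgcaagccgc
CDC45: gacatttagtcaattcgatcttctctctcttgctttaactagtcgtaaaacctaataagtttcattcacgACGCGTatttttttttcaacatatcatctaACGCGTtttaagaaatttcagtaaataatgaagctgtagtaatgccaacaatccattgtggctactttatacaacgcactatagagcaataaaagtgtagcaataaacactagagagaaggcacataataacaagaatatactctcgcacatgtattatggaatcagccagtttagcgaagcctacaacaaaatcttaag
POL12: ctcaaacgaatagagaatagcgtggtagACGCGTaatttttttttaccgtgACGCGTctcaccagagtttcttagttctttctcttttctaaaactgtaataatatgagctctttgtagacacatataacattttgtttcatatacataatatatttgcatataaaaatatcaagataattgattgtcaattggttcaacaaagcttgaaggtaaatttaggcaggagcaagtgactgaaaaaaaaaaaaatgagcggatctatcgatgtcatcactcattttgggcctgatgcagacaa
RFA2: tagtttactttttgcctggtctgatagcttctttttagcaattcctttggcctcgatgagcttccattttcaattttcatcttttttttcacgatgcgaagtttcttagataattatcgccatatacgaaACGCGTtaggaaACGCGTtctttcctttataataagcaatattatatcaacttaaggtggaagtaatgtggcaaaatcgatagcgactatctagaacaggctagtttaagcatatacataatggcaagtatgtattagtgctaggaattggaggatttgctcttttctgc
RAD27: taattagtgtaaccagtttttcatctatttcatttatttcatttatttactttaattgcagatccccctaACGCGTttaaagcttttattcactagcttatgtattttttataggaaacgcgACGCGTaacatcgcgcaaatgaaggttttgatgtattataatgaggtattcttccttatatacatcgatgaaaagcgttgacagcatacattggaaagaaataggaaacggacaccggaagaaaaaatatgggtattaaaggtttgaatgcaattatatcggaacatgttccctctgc
MCM7: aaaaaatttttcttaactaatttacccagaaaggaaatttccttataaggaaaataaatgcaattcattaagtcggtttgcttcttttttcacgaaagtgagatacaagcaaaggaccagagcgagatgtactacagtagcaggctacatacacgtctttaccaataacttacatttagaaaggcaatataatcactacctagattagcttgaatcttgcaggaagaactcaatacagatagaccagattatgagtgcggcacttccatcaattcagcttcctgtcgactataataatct
On R64 these windows lie at chrXIV:429837-430136 on the plus strand (POL1), chrXII:345892-346191 on the minus strand (CDC45), chrII:153561-153860 on the minus strand (POL12), chrXIV:48037-48336 on the plus strand (RFA2), chrXI:225826-226125 on the minus strand (RAD27) and chrII:625522-625821 on the plus strand (MCM7). The 5 windows with the motif hold 2 matches each. Across the replication genes 20 of 47 windows (42.6%) held ACGCGT on either strand, against 184 of 6001 promoters of the genome (3.07%). The Swi4 box CGCGAAA, a related sequence, was in 7 windows (14.9%, against 3.6% of all promoters). The core of URS1, GGCGGC, through which Ume6 and Ime1 act on early meiotic genes, was in 4 windows (8.51%, against 5.13%), those of ORC1, MCM4, MCM5 and POL31. A match describes the letters of the window and is not a measured binding site.

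The libraries held 12826747 to 33048881 counted reads (median 16834032), and the lowest count of any replication gene in any library was 17. In ime4 cells the IME4 level was 0 to 2.37 CPM, against 37.4 to 365 CPM in WT, and PHO92 had 0 to 4.27 CPM in the pho92 libraries and 4.42 to 2232 CPM in WT, so both targeted genes followed the labels. The diploid label was checked on 10 haploid-specific or mating-type-specific genes, all in the table, with 0 of them at 0 in all libraries; their summed level at 0 h was 67.6 to 77.1 CPM in WT, 70.9 to 80.2 CPM in ime4 and 86.3 to 92.6 CPM in pho92. Replicate 1 of pho92 stood apart at 2 h, with POL1 at 70 CPM against 17 and 25.4 CPM in the other pho92 libraries, and replicate 1 of WT was the highest WT library at 2 h for the same gene. Summed over the 47 genes, the replication machinery took 0.129% to 0.139% of all counts in WT at 0 h, 1.109% to 1.356% at 3 h and 0.177% to 0.191% at 9 h. The corresponding share at 3 h was 1.071% to 1.202% in ime4 and 1.064% to 1.488% in pho92.

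**Figure D1:**
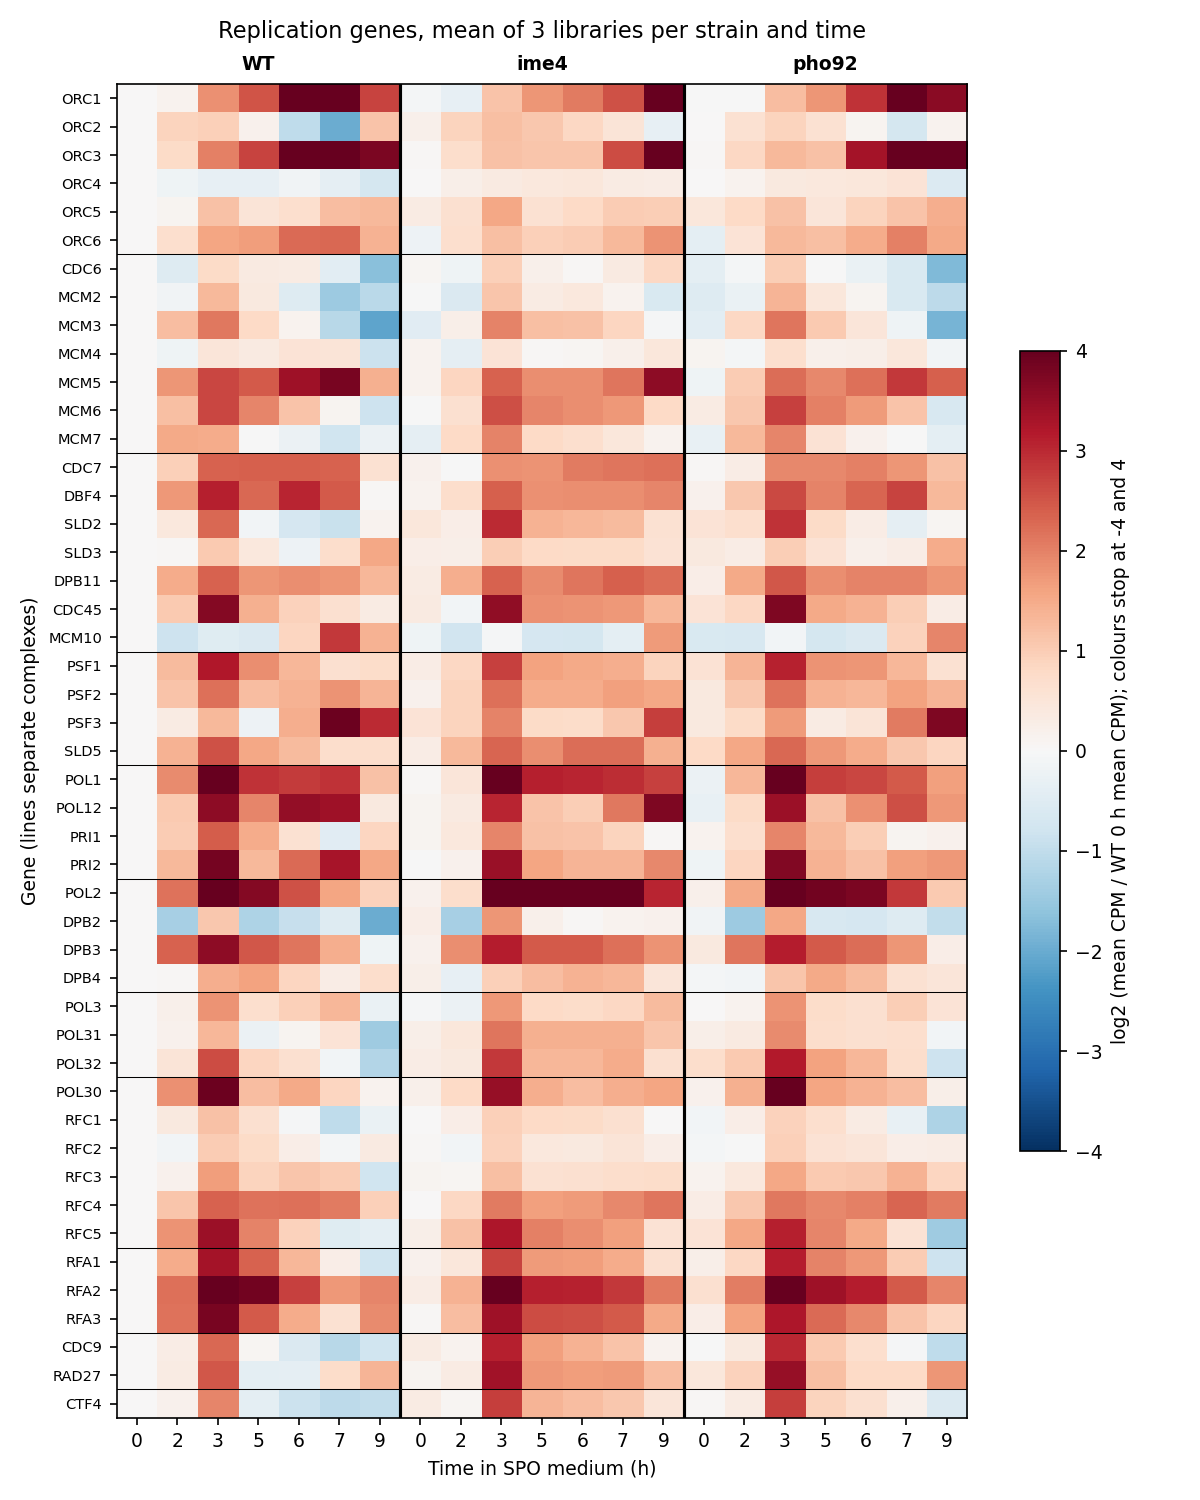
Mean level of each of the 47 replication genes in the 21 groups, as log2 of the group's mean CPM over the WT mean at 0 h, with genes in rows ordered by role and groups in columns. Colours stop at 4 in either direction; most rows are darkest at 3 h in all 3 strains, and ORC1, ORC3, MCM5, MCM10 and PSF3 are darkest in later columns.

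In WT the replication genes rose as a wave that was highest at 3 h, after the copper. Of the 47 genes, 33 had their highest mean at 3 h in WT, 36 in ime4 and 34 in pho92, and in 29, 31 and 31 of them all 3 series of replicates peaked at that time. With total counts as the scaling 43, 40 and 42 genes had their highest mean at 3 h, so the order of the strains depends on the scaling. The median gene was 2.27 higher at 3 h than at 0 h on the log2 scale in WT, 2.09 in ime4 and 1.87 in pho92. When the median over the genes was taken in each series of libraries, the change was 2.24 ± 0.11 in WT, 1.98 ± 0.28 in ime4 and 2.01 ± 0.17 in pho92 (SD, n = 3). The intervals of 1 SD overlapped between the strains, and the difference of these medians was not tested. A series joins libraries of the same replicate number, and whether that number marks 1 culture over time was not checked. Late maxima, at 6, 7 or 9 h, were found for 10 genes in WT, 11 in ime4 and 12 in pho92. Those at 9 h, the last time sampled, were 9 in ime4, 3 in WT and 4 in pho92. A later or higher maximum of these genes could not have been seen. Some late maxima hardly exceeded the 3 h mean. On the log2 scale the margin ran from 0.042 (MCM4) to 4.312 (ORC3) in WT. It ran from 0.043 (RFC4) to 3.993 (ORC3) in ime4 and from 0.059 (DBF4) to 3.741 (ORC3) in pho92.

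The first step of the wave preceded 3 h. At 2 h against 0 h in WT, 26 replication genes were higher and 3 lower by edgeR's quasi-likelihood (QL) test at an adjusted p (Benjamini-Hochberg over 5822 genes) under 0.05, where 26.6% of all genes tested were higher and 30.4% lower. The median log2 fold change was 0.88 over the replication genes and -0.03 over all genes. DPB3, a small subunit of polymerase epsilon, rose by 2.38 (SE 0.19), RFA2, the middle subunit of RPA, by 2.21 (SE 0.20), and MCM7, a subunit of the helicase ring, by 1.51 (SE 0.15) on the log2 scale. DPB2, the essential second subunit of polymerase epsilon, moved the other way. It had 31.6, 35.8 and 37.6 CPM at 0 h and 17.9, 12 and 11.6 CPM at 2 h. All 3 libraries at 2 h lay below all 3 at 0 h, and the log2 fold change was -1.35 (SE 0.20, edgeR adjusted p = 1.4e-07). MCM10 and CDC6 were the other lower genes (-0.83 and -0.53). Of the 12 alternative settings, in which the scaling, the filter, the model or the libraries were changed, MCM10 was called in 7 and CDC6 in 5. Without WT replicate 3 both calls were lost, that of CDC6 also without WT replicate 1 and that of MCM10 also without WT replicate 2.

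From 2 to 3 h in WT, 43 of the 47 genes rose and 0 fell, where 36.3% of all genes rose and 29.3% fell. Across the machinery the median log2 fold change was 1.42, with 0.10 over all genes. Every gene of the GINS complex (4), polymerase alpha-primase (4), polymerase epsilon (4), polymerase delta (3), the clamp and its loader (6), RPA (3) and lagging-strand maturation (2) rose, as did CTF4, the adaptor between helicase and polymerase alpha. In ORC 4 of 6 rose, among Cdc6 and the helicase ring 6 of 7, and among the firing factors 6 of 7. Of the 43 rises, 42 were called in all 12 alternative settings, and ORC3 was the exception.

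The polymerases were among the genes with large changes. POL1, the catalytic subunit of polymerase alpha, had 80.2, 53.4 and 32.7 CPM at 2 h and 397, 546 and 553 CPM at 3 h. No library at 2 h came near those at 3 h, and the log2 fold change of 3.17 (SE 0.27, edgeR adjusted p = 7.4e-14) was the largest of the 47 in this comparison. POL12, the regulatory subunit of the same enzyme, went from 73, 56.7 and 46.3 to 288.5, 360 and 388 CPM, a log2 fold change of 2.56 (SE 0.26). POL2, the catalytic subunit of polymerase epsilon, had 155, 101 and 67.4 CPM at 2 h and 585, 674 and 648 CPM at 3 h (2.56, SE 0.29), and the spread of its 2 h libraries was wider than that of its 3 h libraries. DPB2, which had been lower at 2 h, had 63.9, 74.2 and 85.3 CPM at 3 h and rose by 2.43 (SE 0.20). POL32, the small subunit of polymerase delta, had 11.4, 7.69 and 6.67 CPM at 2 h and 32.3, 33.9 and 43.7 CPM at 3 h (2.10, SE 0.24). The groups did not overlap for any of these genes. POL1, POL2 and POL32 were chosen for the largest change of their role in this step, so their separation follows from the choice.

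Single-strand binding, clamp and maturation genes behaved alike. RFA2 had 144, 107 and 89.8 CPM at 2 h and 543, 648 and 722 CPM at 3 h. POL30, which encodes PCNA, had 152, 127 and 104 CPM at 2 h and 420, 512 and 708 CPM at 3 h. The lowest 3 h library was above the highest 2 h library in both cases, with log2 fold changes of 2.49 (SE 0.20) for RFA2 and 2.10 (SE 0.24) for POL30. RFC3, a subunit of the clamp loader, went from 47.1, 38 and 37.1 to 111, 109 and 127 CPM (1.51, SE 0.13). RAD27, the flap endonuclease, had 24.5, 19.1 and 19.1 CPM at 2 h and 76.9, 84.9 and 118 CPM at 3 h (2.16, SE 0.21). CTF4 had 53.6, 45.5 and 39.5 CPM, then 139, 155 and 184 CPM (1.79, SE 0.16). In all 5 genes every 3 h library was above every 2 h library, and replicate 1 was the highest at 2 h. RFA2, POL30, RAD27 and CTF4 were likewise chosen for the largest change of their role, so their separation is no added support.

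Origin and firing genes changed less evenly. CDC45, a core part of the active helicase, had 28.3, 22.4 and 13.9 CPM at 2 h and 105, 128 and 166 CPM at 3 h, a log2 fold change of 2.63 (SE 0.24). DBF4, the activator of the Cdc7 kinase, had 202, 164 and 142 CPM, then 429, 454 and 455 CPM (1.40, SE 0.17). PSF1, a GINS subunit, had 35.3, 22.6 and 17.2 CPM, then 87.5, 94.9 and 109 CPM (1.96, SE 0.19). MCM6, a subunit of the helicase ring, had 94.8, 86.5 and 75.7 CPM, then 226, 243 and 247 CPM (1.48, SE 0.18), and ORC1, the largest ORC subunit, had 52.1, 47.9 and 43.2 CPM, then 166, 160 and 136 CPM (1.69, SE 0.24). These 5 genes had groups that did not overlap, and all but DBF4 were chosen for the largest change of their role in this step.

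The 4 genes that did not pass the test from 2 to 3 h were MCM7, ORC2, ORC4 and MCM10. MCM7 had 158, 177 and 151 CPM at 2 h and 134, 157 and 186 CPM at 3 h, so the groups overlapped (log2 fold change -0.03, SE 0.15, edgeR adjusted p = 0.89). ORC2 had 37.6, 37.7 and 33.9 CPM, then 36.3, 39.7 and 39.3 CPM. ORC4 had 23.1, 25.5 and 28.7 CPM, then 23, 24.1 and 21.9 CPM. The times overlapped in both ORC genes too. MCM10, a firing factor that binds the helicase, stood at 13.8, 12 and 12.5 CPM at 2 h and 15.1, 16.6 and 17.1 CPM at 3 h, a difference of 0.35 (SE 0.31, edgeR adjusted p = 0.33).

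**Figure D2:**
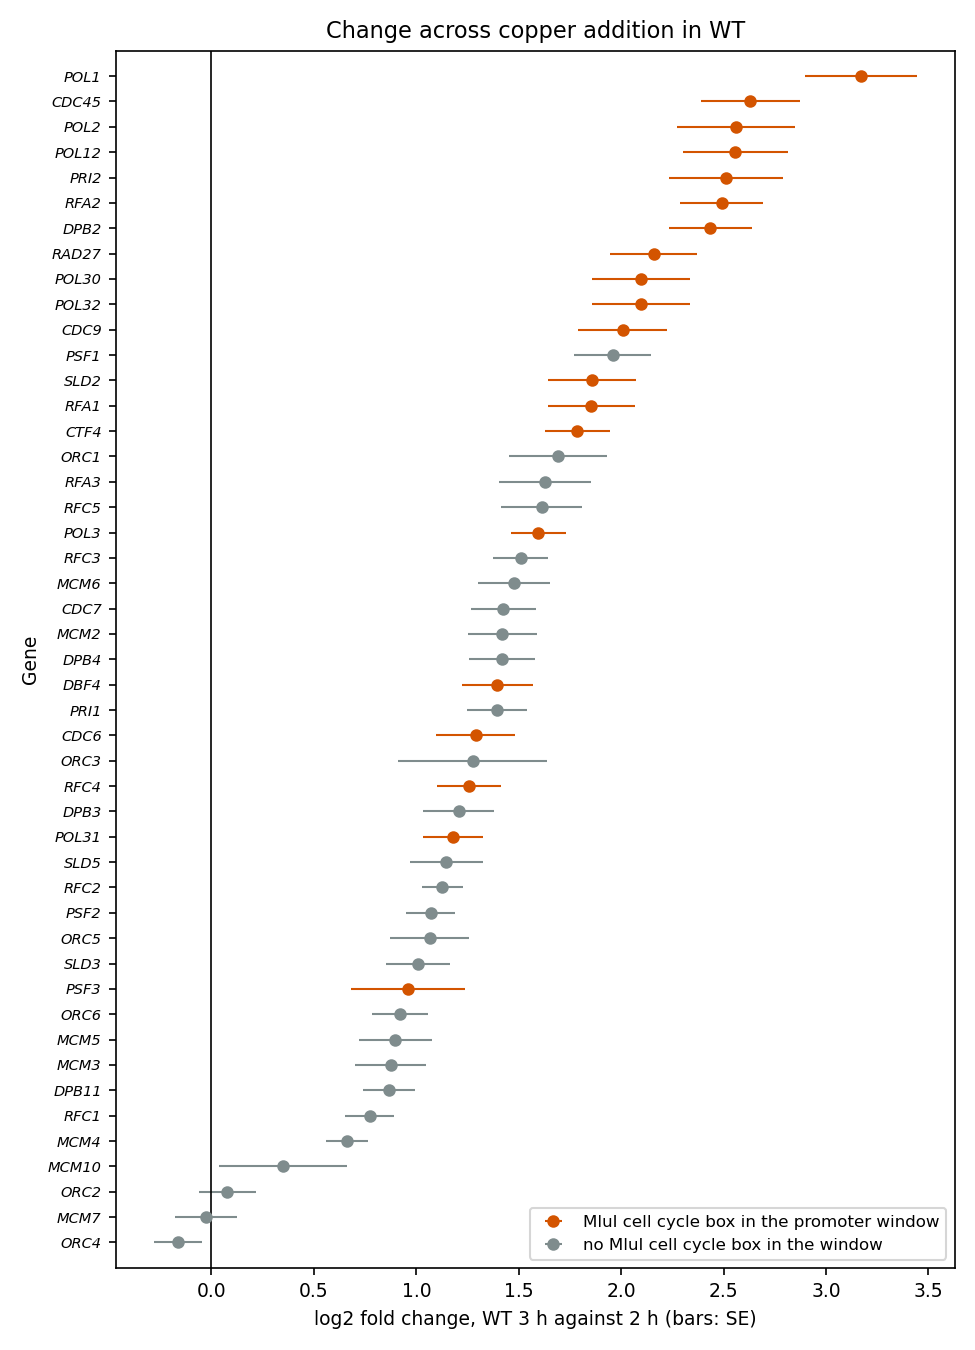
Log2 fold change of each of the 47 genes in WT from 2 to 3 h, with bars of 1 SE from the edgeR fit, and genes whose promoter window holds ACGCGT in orange. The values run from -0.16 (ORC4) to 3.17 (POL1), and the orange genes lie between 0.96 and 3.17.

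The promoter motif can be read beside these changes as a description. The 20 genes with ACGCGT in the window had log2 fold changes from 2 to 3 h of 0.96 to 3.17 (median 2.05), and the 27 genes without it -0.16 to 1.96 (median 1.13). POL1, CDC45, POL12, RFA2 and RAD27, whose windows are printed above with 2 matches each, all rose by more than 2 on the log2 scale. RFA1, whose window is not printed, has 2 matches as well and rose by 1.85. MCM7, ORC2, ORC4 and MCM10, which did not pass the test, have no match in their windows. All the other genes without a match rose by the test.

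Levels of different genes can be compared only per length. At 3 h in WT the highest were RFA3, the smallest RPA subunit, with 812.6 ± 129.4 CPM per kb, RFA2 with 777.6 ± 109.6, POL30 with 704.3 ± 189.4 and RFA1 with 568.9 ± 50.8 (SD, n = 3). The order among RFA3, RFA2 and POL30 is within their SDs. PRI2, the large primase subunit, followed with 313.4 ± 56.7 CPM per kb, above DBF4 with 210.9 ± 6.8. CDC6 (9.3 ± 0.7) and MCM10 (9.5 ± 0.6) were lowest and did not differ beyond their SDs, with ORC4 (14.5 ± 0.7) above them. All 6 ORC genes lay at or below the 56.2 ± 5.8 CPM per kb of ORC1.

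Most replication genes fell from 3 to 5 h and most fell from 5 to 9 h, and at 5 h the median gene of the WT libraries was still 1.25 to 1.27 above its 0 h level on the log2 scale. From 3 to 5 h in WT, 36 replication genes fell and 1 rose, where 27.8% of all genes fell and 24.4% rose, with a median log2 fold change of -0.98. RAD27 dropped to 10.2, 14 and 14 CPM and POL30 to 85.7, 86.5 and 84 CPM, below every 3 h library. Their log2 fold changes were -2.87 (SE 0.22) and -2.68 (SE 0.25), the largest falls of the 47, followed by PRI2 (-2.52), SLD2 (-2.40) and CTF4 (-2.35). MCM7, which had not changed from 2 to 3 h by the test, fell to 51.5, 54 and 63.1 CPM (-1.50, SE 0.15). POL2 and RFA2 fell less, to 317, 287 and 314 CPM and to 341, 348 and 387 CPM (-1.05 and -0.83). ORC1 was the gene that rose, to 371, 200 and 172 CPM (0.68, SE 0.23, edgeR adjusted p = 0.012). Replicate 1 was far above the others there. Without WT replicate 1 the log2 fold change of ORC1 was 0.34 and no longer passed the test (edgeR adjusted p = 0.307, with 0.00831 to 0.307 over the settings).

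Later in WT the machinery split. From 5 to 9 h, 34 genes fell and 7 rose, where 39.6% of all genes fell and 38.1% rose, with a median of -0.90 over the replication genes and -0.02 over all genes. RFA1, the largest RPA subunit, fell by 3.16 on the log2 scale, from 499, 519 and 600 CPM to 67.2, 62.5 and 51.9 CPM. MCM3 (-2.90) and MCM6 (-2.78) fell nearly as much. PSF3, a GINS subunit, rose from 15.4, 12.7 and 13 CPM to 112, 121 and 136 CPM (3.17, SE 0.30). The other genes that rose were MCM10 (1.98), RAD27 (1.75), SLD3 (1.13), ORC3 (1.08), ORC2 (0.97) and ORC5 (0.78). Of these 7 rises, those of PSF3, MCM10, RAD27 and SLD3 were called in all 12 alternative settings. With total counts as the scaling 4 genes rose and 37 fell, and the median of all genes was -0.56.

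**Figure D3:**
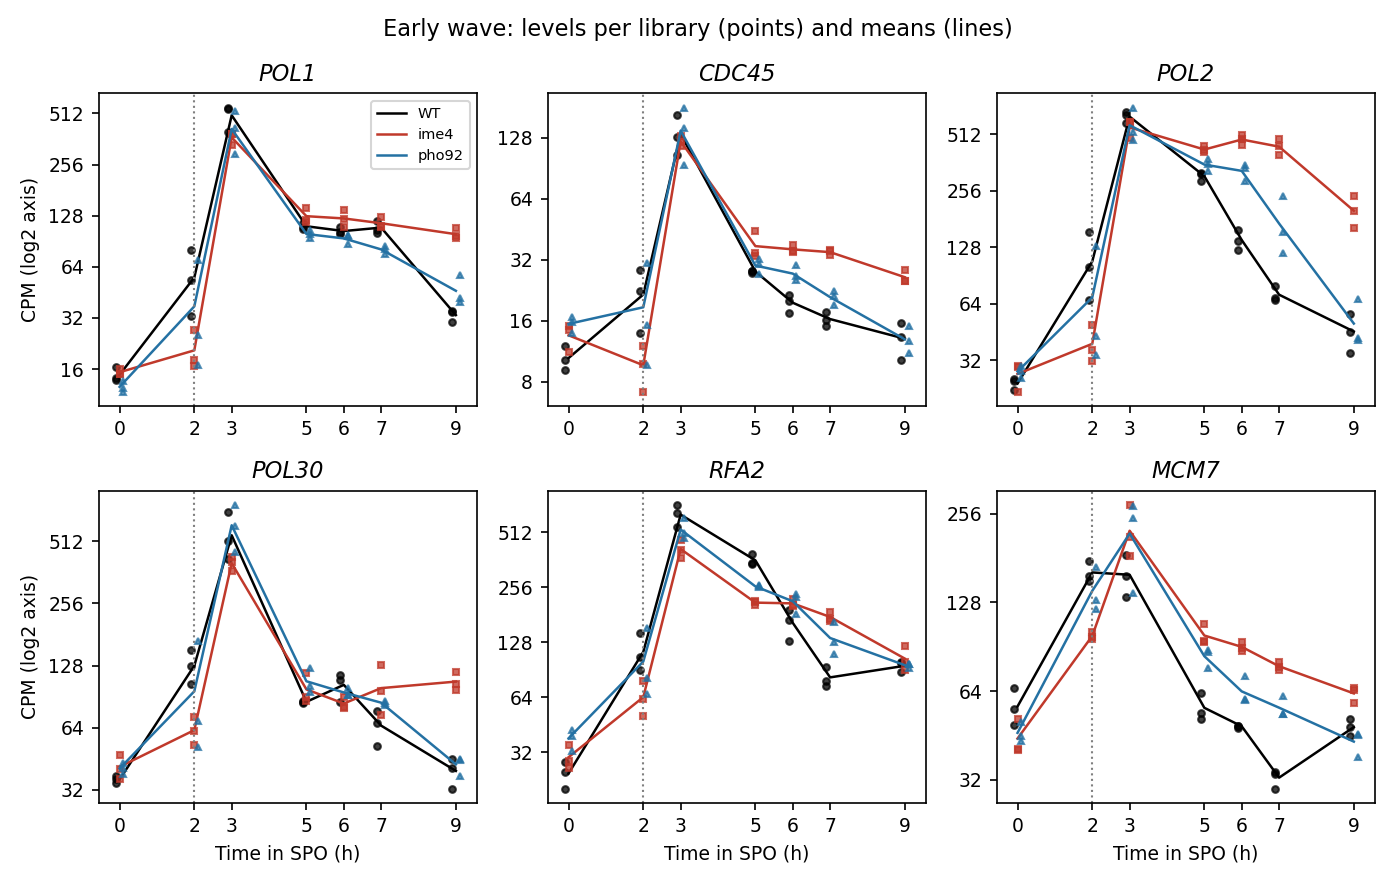
CPM on a log2 axis against time in SPO for POL1, CDC45, POL2, POL30, RFA2 and MCM7; points are libraries, lines join group means (WT black, ime4 red, pho92 blue) and the dotted line marks the addition of copper at 2 h. POL1 reaches 397 to 553 CPM at 3 h in WT and 335 to 388 CPM in ime4, and POL2 stays at 395 to 481 CPM at 7 h in ime4, where WT has 66.8 to 79.7 CPM.

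Some genes of the origin and helicase complexes had a later and higher maximum, given here as levels because 7 h was not tested against 3 h. ORC1 had 1343, 1232 and 990 CPM at 6 h and 1375, 1609 and 1572 CPM at 7 h in WT, well above its level at 3 h, and 278, 280 and 289 CPM at 9 h. ORC3 had 49.7, 50.3 and 42.5 CPM at 3 h and 812, 1020 and 1011 CPM at 7 h. MCM5 had 292, 315 and 310 CPM at 3 h and 705, 667 and 636 CPM at 7 h. The 7 h libraries lay above all 3 h libraries in each of these genes, and the same held for MCM10 (176, 150 and 160 CPM at 7 h) and PSF3 (310, 218 and 192 CPM at 7 h). POL12 had a second high stretch, with 314, 356 and 316 CPM at 6 h after 152, 93.1 and 88.6 CPM at 5 h. Scaling by total counts alone moved this pattern: 4 WT genes, ORC1, ORC3, MCM10 and PSF3, then kept a late maximum, in place of 10.

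NDT80, the gene of the transcription factor of middle meiosis, moved with these late levels, from 606 to 1662 CPM at 5 h to 6068 to 6518 CPM at 7 h in WT, 583 to 1495 CPM at 7 h in ime4 and 2305 to 3919 CPM in pho92. The 100 most abundant genes took up 26.31% to 26.57% of WT reads at 3 h and 54.29% to 58.45% at 7 h, against 24.84% to 26.37% in ime4 at 7 h. The 10 haploid-specific or mating-type-specific genes moved too, with a summed level at 7 h of 757.8 to 888.4 CPM in WT, 282.7 to 356.6 CPM in ime4 and 423.1 to 675.6 CPM in pho92, of which STE4, the gene of a subunit of the pheromone-response G protein, gave 457 to 554 CPM in WT. ORC1 has SMA2, a spore membrane gene, 676 bases upstream on the opposite strand, whose mean log2 CPM went from 1.02 at 3 h to 11.64 at 7 h, and ORC3 has SPO75, a sporulation gene, 526 bases upstream, also on the opposite strand, which went from 1.83 to 9.42. The parts that NDT80, the few abundant genes, the haploid-specific genes and these neighbours have in the late levels were not tested. No replication gene overlaps a neighbour on R64 (0 of 47).

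**Figure D4:**
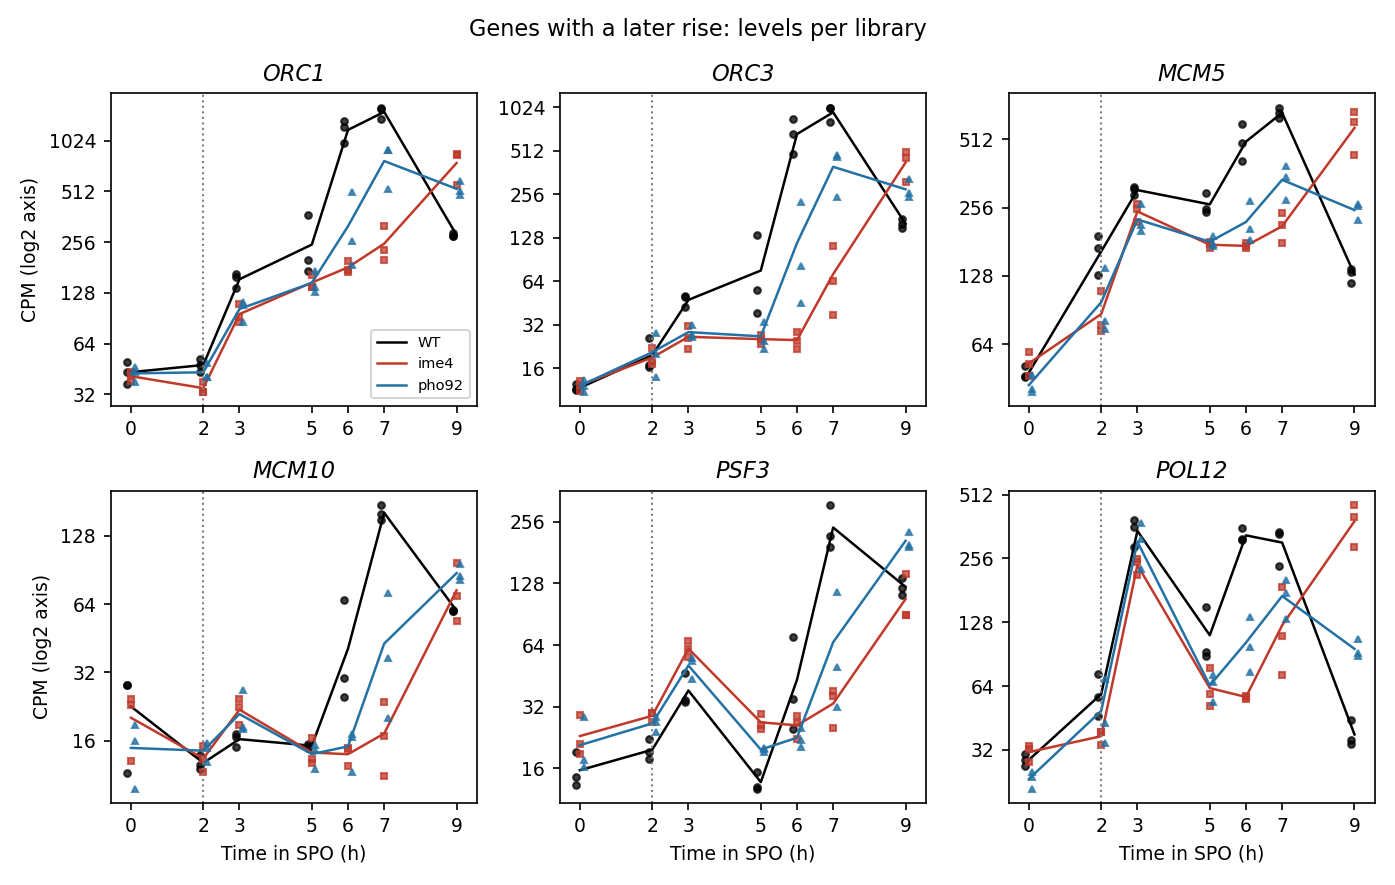
CPM on a log2 axis against time in SPO for ORC1, ORC3, MCM5, MCM10, PSF3 and POL12; points are libraries, lines join group means and the dotted line marks the copper at 2 h. In WT ORC3 is at 812 to 1020 CPM at 7 h, in pho92 at 244 to 480 CPM and in ime4 at 37.3 to 113 CPM, and ime4 reaches 312 to 502 CPM at 9 h.

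Genes around the replication machinery were read from 7 lists of 56 genes, of which 55 were in the table, and their counts stand beside 36.3% of all genes higher and 29.3% lower in WT from 2 to 3 h. All 8 chromatin assembly genes, all 7 further lagging-strand and topoisomerase genes and all 6 cohesion genes rose in WT from 2 to 3 h. The largest changes in these lists were those of RTT109 (2.25), a histone acetyltransferase, and ASF1 (2.16), a histone chaperone, of RNH201 (3.15), a subunit of RNase H2, and the helicase PIF1 (2.34), and of the cohesin loader SCC2 (3.00) and the cohesion factor PDS5 (2.87). Alternative clamp loaders and checkpoint genes had 8 of 9 higher, led by the kinase RAD53 (2.49) and CTF18 (2.39). Among regulators of the start of S phase and its cyclins 7 of 10 were higher and 1 lower. The B-type cyclin CLB6 had the largest change of that list (4.43, SE 0.66), followed by NRM1 (3.18), a repressor of MBF, while the cyclin-kinase inhibitor SIC1 was lower (-0.41). Of the other licensing and firing factors 4 of 6 were higher, with CSM3 (2.82) and TOF1 (2.18) first, and SLD7, a partner of Sld3, was lower (-1.12). Supply of deoxynucleotides was split: 7 of 9 genes were higher, among them the thymidylate synthase CDC21 (3.25) and DUT1 (2.73), and the small subunits of ribonucleotide reductase RNR4 (-2.06) and RNR2 (-1.44) were lower.

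Among all other genes with a standard name, those whose profile over the 21 group means was most like the mean profile of the replication genes were OGG1 (Pearson r 0.99), PDS5 (0.976) and IRR1 (0.97), given as a description over groups that share strains and times. POL1 had the highest r with that mean among the 47 (0.975), and MCM10 (-0.121), PSF3 (0.106) and ORC3 (0.114) had the lowest. The mean profile includes the 47 genes themselves.

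The mutants were next compared with WT at each time, and all these comparisons share the WT libraries. At 0 h no replication gene was called in ime4 by edgeR (0 of 47, where 0.258% of all genes were called). DESeq2 called 0 as well, and 4 had an unadjusted p under 0.05. In pho92 5 genes were higher and 2 lower at 0 h, where 18.1% of all genes were called, and none of the 7 was called in all 15 alternative settings. With WT replicate 2 left out 2 were called at 0 h, with WT replicate 3 left out 4, and 2 without pho92 replicate 3.

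At 2 h the replication genes were lower in ime4: 17 were lower and 1 higher, where 6.7% of all genes were lower and 5.67% higher, and the median was -0.30 with 0 over all genes. POL1 had 16.7, 18.1 and 27.1 CPM in ime4, all below the WT libraries (32.7 to 80.2 CPM), and POL2 had 31.7, 36.3 and 49.6 CPM against 67.4 to 155 CPM. Their log2 differences were -1.42 (SE 0.26, edgeR adjusted p = 0.00013) and -1.46 (SE 0.28, edgeR adjusted p = 0.00027). CDC45 (-1.16), PRI2 (-1.14), POL30 (-1.03), RFA1 (-1.03) and CDC7 (-0.97) followed, and ORC4 was the gene that was higher (0.41). The count was 2, POL1 and CDC7, without replicate 2 of both strains, and 11 without replicate 1 of both strains. Markers of meiotic state were read beside it. At 2 h IME2, a meiotic kinase gene, was at 123 to 239 CPM in ime4 and 418 to 677 CPM in WT. REC8, the meiotic cohesin, was at 29.8 to 188 and 281 to 689 CPM, and SPO11, the recombination nuclease, at 9.92 to 17.6 and 22.3 to 48.9 CPM. IME1 was at 4129 to 4659 CPM in ime4 and 3382 to 3496 CPM in WT, and NDT80 at 8.35 to 12.6 and 8.62 to 10.3 CPM. The sum of these 5 genes was 4375 to 4830 CPM in ime4 and 4113 to 4921 CPM in WT, with 0 of them at 0. Their part in the difference was not tested. In pho92 at 2 h, 2 genes were higher and 4 lower, a share of the 47 near the 12.4% of all genes that were called. The count rested on single libraries. Without pho92 replicate 1 there were 1 higher and 15 lower, without WT replicate 1 2 higher and 1 lower, without pho92 replicate 2 3 higher and 0 lower, without WT replicate 2 0 higher and 3 lower, and without pho92 replicate 3 0 higher and 1 lower. IME2 in pho92 was at 692, 178 and 194 CPM and REC8 at 580, 79 and 79.4 CPM, so replicate 1 was apart in these markers too.

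From 2 to 3 h most of the replication genes rose in the mutants too. In ime4 45 genes rose and 0 fell (30.5% of all genes rose), with a median of 1.66, and in pho92 42 rose and 0 fell (30.4% of all genes rose), with a median of 1.32. The change of POL1 was 4.16 (SE 0.29) in ime4 and 3.46 (SE 0.28) in pho92. Whether the rise itself differed from WT was tested as a difference of differences. For ime4 this was called for 2 genes, both with a larger rise than WT (0.859% of all genes were called): MCM7 by 1.21 (SE 0.21, edgeR adjusted p = 0.00071) and CTF4 by 0.88 (SE 0.22, edgeR adjusted p = 0.039). MCM7 had 102, 96.2 and 98 CPM at 2 h and 275, 214 and 184 CPM at 3 h in ime4, with no overlap, where its WT groups overlapped. Its call was lost without ime4 replicate 1 (adjusted p = 0.0649) and without replicate 2 of both strains (adjusted p = 0.567), with adjusted p from 1.66e-05 to 0.567 over all settings, and that of CTF4 was lost in 8 of 15 settings, among them leaving out any ime4 replicate, WT replicate 1 or WT replicate 2. For pho92 edgeR called 0 genes (0.653% of all genes), 5 had an unadjusted p under 0.05 and DESeq2 called 0, and without pho92 replicate 1 edgeR called 11, all with a larger rise than WT.

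At 3 h, the height of the wave, ime4 and WT differed in both directions. In ime4 8 of 47 genes were higher and 11 lower, where 14.8% of all genes were higher and 15.9% lower. The share of higher genes was near that of all genes, and the share of lower genes was above it. The median was -0.17 with -0.04 over all genes. RAD27 had 179, 162 and 178 CPM in ime4, above all 3 WT libraries (76.9, 84.9 and 118 CPM), a log2 difference of 0.89 (SE 0.20, edgeR adjusted p = 0.00072). CTF4 had 281, 258 and 288.5 CPM (WT 139, 155 and 184 CPM; 0.79, SE 0.15), and POL31, the middle subunit of polymerase delta, had 228, 193 and 208 CPM (WT 114, 114 and 135 CPM; 0.79, SE 0.15). DPB2 with 119, 109 and 132 CPM (0.69, SE 0.19) and ORC4 with 34.9, 37.2 and 40 CPM (0.70, SE 0.11) were higher too, and in all 5 genes the strains did not overlap. These 5 were called in all 15 alternative settings. RAD27, CTF4, POL31 and DPB2 were chosen for the largest difference of their role in this comparison, so their separation follows from the choice. CDC9, the DNA ligase (0.79), SLD2 (0.68) and MCM7 (0.50) were the other higher genes, and their calls were lost without replicate 2 of both strains.

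The 11 genes that were lower in ime4 at 3 h were DBF4, ORC1, RFA2, RFA1, CDC7, DPB4, RFC3, PSF1, PRI1, DPB3 and ORC6, with log2 differences from -0.74 to -0.37. DBF4 had 286, 225 and 292 CPM in ime4 against 429, 454 and 455 CPM (-0.74, SE 0.17, edgeR adjusted p = 0.00093). RFA2 had 408, 367 and 465 CPM against 543, 648 and 722 CPM (-0.62, SE 0.19), and RFC3 had 81.5, 71.8 and 94.4 CPM against 111, 109 and 127 CPM (-0.49, SE 0.13). No ime4 library reached the lowest WT library in these 3 genes, which were chosen for the largest difference of their role in this comparison. None of the 11 held in every setting: DBF4 was lost without replicate 2 of both strains (adjusted p = 0.12, with 0.000268 to 0.12 over the settings). The split moved with single libraries and with the scaling. There were 9 higher and 2 lower genes with total counts as the scaling, 7 and 3 without WT replicate 2, 9 and 5 without WT replicate 3, and 8 and 2 without ime4 replicate 2. POL1, the gene with the largest rise in WT, did not pass the test (388, 335 and 386 CPM in ime4, -0.43, SE 0.25, edgeR adjusted p = 0.19), nor did ORC3 (-0.85), PSF3 (0.68) and POL12 (-0.54).

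In pho92 at 3 h, 7 genes were higher and 3 lower, where 10.3% of all genes were higher and 7.64% lower. Out of 47, the lower count was near that share and the higher count was slightly above it. RAD27 had 137, 234 and 195 CPM (1.02, SE 0.20, edgeR adjusted p = 0.00033), CTF4 had 204, 358 and 277 CPM (0.81, SE 0.15) and ORC4 had 38.5, 38.3 and 36.7 CPM (0.72, SE 0.11). All pho92 libraries lay above all WT libraries for these genes, although pho92 replicate 1 was well below the other pho92 libraries in RAD27 and CTF4. CDC9 (0.72), SLD2 (0.61), POL31 (0.55) and MCM7 (0.46) were the others that were higher, and DBF4 (-0.47), PRI1 (-0.45) and CDC7 (-0.45) were lower. ORC4 alone was called in all 15 settings, and RAD27 and CTF4 were lost only without replicate 2 of both strains (adjusted p = 0.104 and 0.105, with 7.04e-06 to 0.104 and 5.25e-07 to 0.105 over the settings). Leaving out WT replicate 1 gave 6 called genes in place of 10, leaving out WT replicate 2 gave 3, and there were 6 without pho92 replicate 2 and 5 without pho92 replicate 3. It was 6 higher and 0 lower with total counts as the scaling, 8 higher and 11 lower with these 6 libraries alone, and 7 higher and 10 lower with DESeq2.

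**Figure D5:**
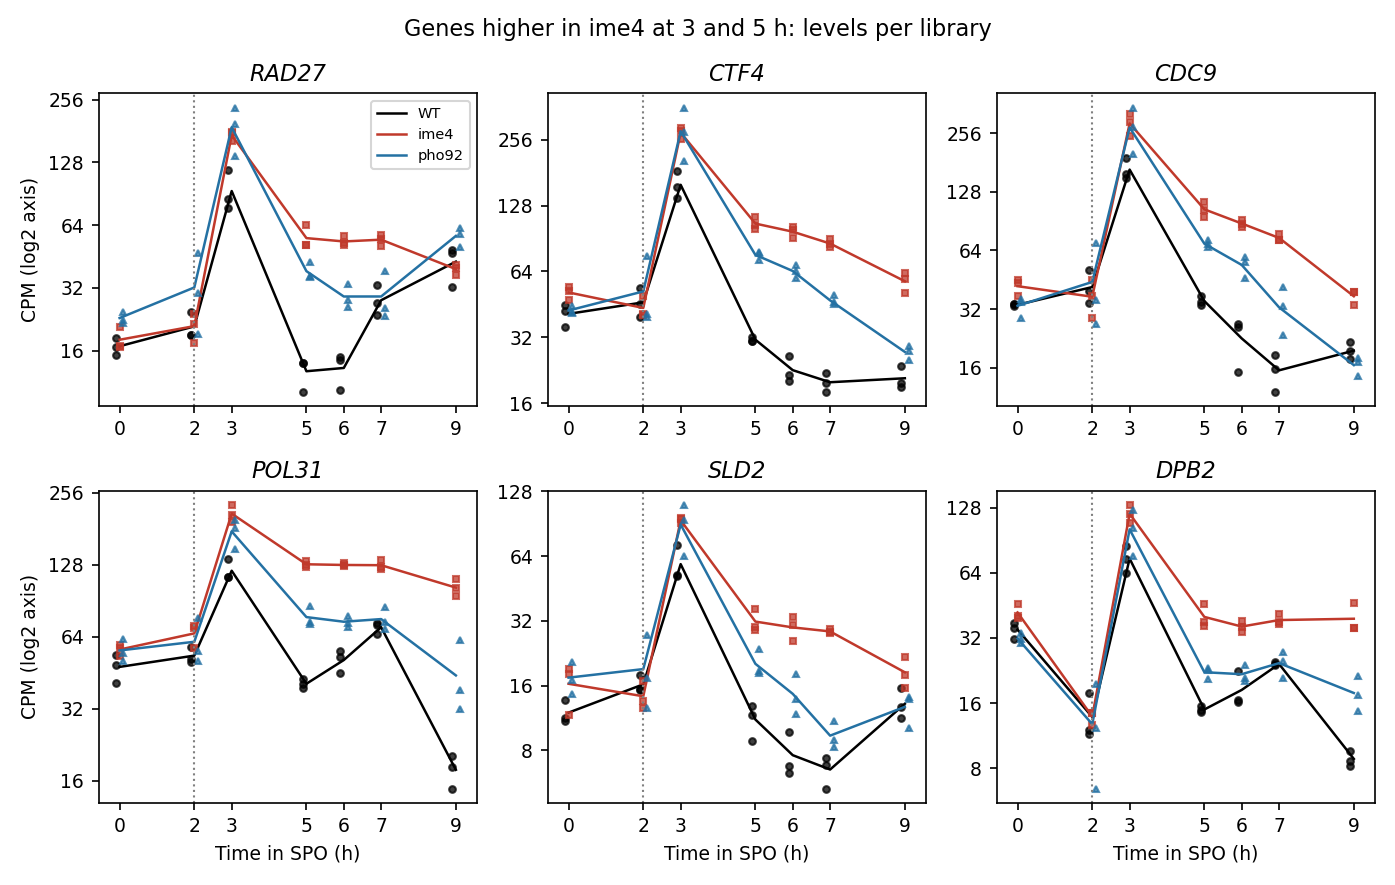
CPM on a log2 axis against time in SPO for RAD27, CTF4, CDC9, POL31, SLD2 and DPB2; points are libraries and lines join group means. At 5 h RAD27 is at 51.2 to 63.7 CPM in ime4, at 36 to 42.7 CPM in pho92 and at 10.2 to 14 CPM in WT.

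At 5 h, after the maximum of the wave, ime4 stood further above WT than at 3 h in RAD27, CTF4, POL31 and SLD2, by the test of the change from 3 to 5 h that is given with the decline. In ime4 12 genes were higher and 12 lower, where 23.4% of all genes were higher and 26% lower. Both counts out of 47 were near these shares. RAD27 had 51.2, 63.7 and 51.3 CPM in ime4 and 10.2, 14 and 14 CPM in WT, a log2 difference of 2.12 (SE 0.21, edgeR adjusted p = 2.7e-11). CTF4 had 105, 113 and 99.6 CPM against 32.1, 30.7 and 30.7 CPM (1.76, SE 0.16), and CDC9 had 103, 114 and 95 CPM against 33.6, 34.6 and 37.2 CPM (1.57, SE 0.22). POL31 had 128, 133 and 126 CPM against 40.6, 42.7 and 39.1 CPM (1.66, SE 0.15). SLD2 (1.51), DPB2 (1.42), ORC2 (0.90), MCM7 (0.81) and ORC4 (0.75) were also higher in all 15 settings, and every ime4 library of RAD27, CTF4, CDC9, POL31, SLD2 and DPB2 was above every WT library. The printed RAD27 window holds ACGCGT, as do those of CTF4, CDC9, POL31, SLD2 and DPB2, while those of ORC2, ORC4 and MCM7 do not. The remaining higher genes were PSF3, whose window holds the motif, and MCM3 and SLD3, whose windows do not. Of all the replication genes, 20 of 47 hold it. Of the 12 genes lower in ime4 at 5 h, POL12, RFA1, RFA2, DBF4 and RFC4 hold the motif as well, and the others do not. The part of the motif in these differences was not tested. ORC3 (-1.58), POL12 (-0.83), RFA2 (-0.77), ORC1 (-0.75) and ORC6 (-0.71) were lower, and of the 12 lower genes ORC6 alone held in all settings. With total counts as the scaling 19 genes were higher and 3 lower, with a median of all genes of 0.26, and without replicate 1 of both strains 10 were higher and 5 lower.

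In pho92, 10 genes were higher at 5 h and 6 lower, where 17.3% of all genes were higher and 16.3% lower. Both counts out of 47 were near these shares. RAD27 had 36.6, 36 and 42.7 CPM (1.59, SE 0.21), CTF4 had 77.5, 72.4 and 78.5 CPM (1.29, SE 0.16), and CDC9 had 66.9, 69 and 72.1 CPM (0.98, SE 0.21). These libraries lay between those of WT and those of ime4 without overlap. POL31 (0.93), SLD2 (0.86) and ORC4 (0.75) completed the 6 genes that were called in all 15 settings. ORC3 was lower (-1.52), a call that was lost without WT replicate 1, where 8 genes were higher and 2 lower in all. Same-numbered WT and pho92 libraries deviated together at this time, and with these 6 libraries alone and the replicate number as a block 12 genes were higher and 10 lower. With total counts as the scaling 11 were higher and 2 lower.

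The decline from 3 to 5 h was common to the strains. In ime4 35 genes fell and 1 rose (13.1% of all genes fell), with a median of -0.75, and in pho92 36 fell and 0 rose (17.4% of all genes fell), with a median of -0.78. The fall differed between ime4 and WT for 5 genes, all with a smaller fall in ime4, where 14.4% of all genes were called, so the share of replication genes was not above that of all genes. These were RAD27 (1.23, SE 0.29), CTF4 (0.97), POL31 (0.87), SLD2 (0.83) and ORC2 (0.64). RAD27, CTF4 and POL31 lost the call without ime4 replicate 2 and without replicate 2 of both strains, and SLD2 and ORC2 in more settings, so none held in every setting. The count of 5 was 0 without ime4 replicate 2 and 3 without ime4 replicate 1 or any WT replicate. For pho92 edgeR called 0 (0.807% of all genes), with 4 at an unadjusted p under 0.05 and 0 by DESeq2. Set against WT at 3 h, ime4 at 5 h had 38 lower genes and 1 higher gene, ORC4, where 26% of all genes were lower, with a median of -0.73.

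The same lists were read in the mutants, as counts of genes higher and lower than WT. Over all genes, 14.8% were higher and 15.9% lower in ime4 at 3 h, 23.4% and 26% at 5 h, and 10.3% and 7.64% in pho92 at 3 h, and several of the list counts are near or below these shares. At 3 h in ime4 the G1/S regulators and cyclins had 2 higher and 5 lower of 10, and the further lagging-strand genes 0 higher and 5 lower of 7. Chromatin assembly had 1 and 4 of 8, the alternative clamp loaders and checkpoint genes 2 and 3 of 9, and the dNTP genes 1 and 0 of 9. NRM1 was lower by the test (-1.78, SE 0.29, edgeR adjusted p = 4.8e-06), as were CLB6 (-1.55) and PIF1 (-0.72), and STB1, a partner of the G1/S factors, was higher (1.09). At 5 h in ime4 the dNTP genes had 4 higher and 0 lower of 9, and the other licensing and firing factors 3 and 0 of 6. CLB6 was lower (-3.00) and SIC1 higher (1.44) there. STB1 and SIC1 were picked for naming here after their values were seen. In pho92 at 3 h the G1/S regulators and cyclins had 2 higher and 3 lower of 10, and the further lagging-strand genes 0 higher and 3 lower of 7.

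From 6 h on, most of the called genes were higher in ime4, and several genes with a late maximum in WT were lower. In ime4 23 of 47 genes were higher at 6 h and 12 lower (43.6% and 34.5% of all genes). The higher share at 6 h was near that of all genes, and the lower share was below it. The median at 6 h was 0.35, with 0.21 over all genes. At 7 h 29 were higher and 12 lower (44.9% and 37.5%). POL2 had 508, 483 and 449 CPM at 6 h and 443, 481 and 395 CPM at 7 h in ime4, where WT had 124, 138 and 157 CPM and then 79.7, 68.4 and 66.8 CPM. The difference at 7 h was 2.62 (SE 0.29, edgeR adjusted p = 3.6e-11). ORC2 had 30.2, 30.8 and 24 CPM at 7 h in ime4 against 5.55, 5.07 and 4.27 CPM (2.49, SE 0.17), and CDC9 (2.28), SLD2 (2.15) and CTF4 (2.11) were higher as well. All ime4 libraries lay above all WT libraries in POL2 and ORC2. With total counts as the scaling 39 genes were higher and 4 lower at 6 h and 40 and 4 at 7 h, while the median of all genes moved from 0.21 to 1.35 and from 0.20 to 1.98.

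The lower genes in ime4 included those with the highest late levels in WT. ORC3 had 21.5, 24.8 and 28.6 CPM at 6 h in ime4 against 856, 669 and 484 CPM in WT, a log2 difference of -4.74 (SE 0.41, edgeR adjusted p = 3.7e-14). ORC1 (-2.71) and POL12 (-2.53) were lower at 6 h, and at 7 h ORC1 had 231, 201 and 321 CPM against 1375, 1609 and 1572 CPM. MCM10 (16.7, 11.2 and 23.7 CPM in ime4) and PSF3 (36.2, 25.1 and 38.2 CPM) were lower at 7 h, with log2 differences of -3.23 and -2.86. ORC1, ORC3, MCM10 and PSF3 at 7 h were called lower in all 15 settings. With total counts as the scaling the lower calls of MCM5, POL12 and PRI2 at 7 h were lost. Under the same scaling ORC6, POL3, MCM4, DBF4 and RFC3, also among the 12 lower genes at 7 h, were called with the opposite sign.

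At 9 h in ime4, 33 replication genes were higher and 3 lower, where 46.9% of all genes were higher and 33.3% lower, with a median of 1.01 and 0.31 over all genes. POL12 had 458, 290 and 402 CPM in ime4 and 35.4, 33.9 and 44.1 CPM in WT (3.34, SE 0.27, edgeR adjusted p = 2.1e-15). ORC1 had 846, 561 and 859 CPM, above the 278, 280 and 289 CPM of WT (1.42), and ORC3 had 460, 312 and 502 CPM against 158, 150 and 172 CPM (1.41). ORC2 was lower, with 17.4, 17.7 and 11.8 CPM against 43.4, 45.9 and 42.5 CPM (-1.48, SE 0.15), as were SLD3 (-0.99) and PRI1 (-0.80). The ime4 levels of ORC1 and ORC3 at 9 h were still below those of WT at 7 h, and no later time was sampled.

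The pho92 differences of ORC3 and ORC1 at 6 h and of POL2, MCM10 and PSF3 at 7 h had the same sign as in ime4. They were smaller than in ime4 at these times, and the difference between the mutants was not tested. In pho92 19 of 47 genes were higher at 6 h and 13 lower (37.8% and 33% of all genes). At 7 h 19 were higher and 10 lower (34.7% and 28.1%). These counts were near the shares of all genes. ORC3 had 226, 81.2 and 45.3 CPM at 6 h (-2.51, SE 0.37), and ORC1 had 508, 260 and 187 CPM (-1.90). The pho92 replicates were spread widely here, with replicate 1 far above the others. Without WT replicate 1, 12 genes were higher and 9 lower at 6 h, and with total counts as the scaling 37 were higher and 3 lower at both times. POL2 had 120, 154 and 240 CPM at 7 h (1.26), above all WT libraries and below all ime4 libraries, and MCM10 (-1.92) and PSF3 (-1.86) were lower. At 9 h 14 genes were higher and 5 lower, where 32.4% of all genes were higher and 24.8% lower, with RFC3 (1.66), POL12 (1.34), POL31 (1.31) and DBF4 (1.26) the most changed. Neither count out of 47 was above these shares. With total counts as the scaling the split at 9 h was 10 higher and 12 lower, and the median of all genes moved from 0.07 to -0.38.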

How the data were processed

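The deposited table holds raw counts of reads per gene for 63 mRNA-seq libraries. Per the labels' protocols, 500 ng of total RNA entered a TruSeq stranded mRNA kit and was sequenced as 50-nt single reads. Per the submitters' processing notes, the authors used bcl2fastq 2.17.1.14, TopHat2 2.0.14, Bowtie, HTSeq 0.6.1, R 3.5.1 and DESeq2 1.22.1; no genome build or strand setting of the counting is named (not given in the sources used here), so reads of overlapping antisense genes may not be told apart.

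From these counts, edgeR 4.0.16 (limma 3.58.1, R 4.3.3) was run on all 63 libraries with 1 mean per group, TMM scaling and removal of genes with low counts (minimum count 10; 266 genes removed, 5822 tested, all 47 replication genes kept). Quasi-likelihood F tests gave 27 comparisons, with Benjamini-Hochberg adjustment over all genes tested and a threshold of 0.05. The SE of a log2 fold change is its size divided by the square root of the F statistic. CPM use TMM-scaled library sizes, and log2 CPM a prior count of 2. The common biological coefficient of variation was 0.184 on 42 residual degrees of freedom. The fit was tested on simulated data. Promoters were read from the R64 genome, where 5575 of the table's identifiers matched and 513 did not; all 47 genes have the start that R64 gives them.

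The replication genes and the lists were chosen with earlier results of these data known. All 47 may be named. Values for every library were given for the gene of each role with the largest change in WT from 2 to 3 h, the one with the largest ime4 difference at 3 h, genes not called from 2 to 3 h, and the others as examples; from each of the 7 pathway lists the 2 called genes with the largest change in WT were named. The labels call the replicates biological. The fit has no replicate block. Same-numbered samples were checked for deviations from their group means that correlate, per comparison; every one of the 3 pairs had r over 0.1 for WT and pho92 at 5 h (0.163 to 0.694) and 6 h (0.229 to 0.583) and for no other pair of strains and time, so the numbers were taken to pair the samples there, as a finding from the data. Alternatives were RLE factors, total counts alone, no filter, a replicate block, the compared libraries alone, DESeq2 1.42.0 and leaving out each replicate. A fit of the compared libraries alone with a replicate block, for pho92 against WT at 5 and 6 h, was added after seeing the data.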

Additional observations from a re-analysis of the deposited data

Results flagged for a closer look

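The change over time differed between ime4 and WT for 6 replication genes, by edgeR's quasi-likelihood test of the difference itself, with Benjamini-Hochberg adjustment over all genes, of which 0.859% were called from 2 to 3 h and 14.4% from 3 to 5 h. The 5 of 47 replication genes called from 3 to 5 h are not above that share. From 2 to 3 h MCM7 changed by 1.21 more in ime4 than in WT on the log2 scale, and CTF4 by 0.88 more. From 3 to 5 h the difference was 1.23 for RAD27, 0.97 for CTF4, 0.87 for POL31, 0.83 for SLD2 and 0.64 for ORC2, in each case because the fall was smaller in ime4. The largest adjusted p over the 15 alternative settings was 0.567 for MCM7, 0.123 for RAD27, 0.127 for CTF4 from 3 to 5 h, 0.145 for POL31, 0.276 for SLD2 and 0.391 for ORC2, and the lowest was 1.66e-05, 0.00074, 0.000628, 0.00124, 0.0139 and 0.00548. CTF4 from 2 to 3 h ranged from 0.0157 to 1. Leaving out ime4 replicate 2 ended all 5 calls from 3 to 5 h, and leaving out ime4 replicate 1 ended both calls from 2 to 3 h. The same test called 0 replication genes for pho92 in either interval, and 5 and 4 had an unadjusted p under 0.05.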

How the results depend on the processing

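Of 919 values recomputed under an alternative, 810 kept their direction and call, or stayed near the reported value, 43 lost the call, 54 moved and 12 reversed. Counts of replication genes called within a strain all stayed within 1.5 times of those reported. Total counts as the scaling gave 11 called for ime4 at 3 h, 1 for pho92 at 0 h, 6 for pho92 at 3 h, 22 for pho92 at 9 h and 1 for the ime4 difference from 2 to 3 h. It also gave 43, 40 and 42 genes with their highest mean at 3 h in WT, ime4 and pho92. Late maxima were then 4, 7 and 4 and median rises 2.85, 2.71 and 2.48, in the same order of strains. With the compared libraries alone, pho92 had 3 at 0 h, 0 at 2 h and 19 at 3 h, the ime4 differences had 4 (2 to 3 h) and 14 (3 to 5 h), and the pho92 difference from 3 to 5 h had 1. DESeq2 called 17 for pho92 at 3 h and 4 for the ime4 difference from 2 to 3 h. Leaving out replicates gave 2 to 19 for ime4 at 2 h, 5 to 17 at 3 h and 15 to 25 at 5 h. For pho92 it gave 1 to 11 at 0 h, 0 to 16 at 2 h, 1 to 12 at 3 h, 8 to 17 at 5 h and 20 to 37 at 6 h. The ime4 differences ranged from 0 to 3 and 0 to 4, and the pho92 difference from 2 to 3 h from 0 to 11. The balance of higher and lower turned for ime4 at 3 h without WT replicate 2 (10 called), WT replicate 3 (14), ime4 replicate 2 (10), replicate 2 of both strains (5) and replicate 3 of both (15). It turned for pho92 at 2 h without WT replicate 1 (3) and pho92 replicate 2 (3), and at 0 h without replicate 3 of both (1). The causes were not tested.

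A replicate block changed no count by over 1.5 times, with 43 called in WT from 2 to 3 h, 19 in ime4 at 2 h and 9 in pho92 at 3 h. Of 63 pairs of same-numbered samples, 17 had a correlation of their deviations over 0.1 (r from -0.651 to 0.694), 13 of them among the 21 pairs of WT and pho92, 3 among those of WT and ime4 and 1 among those of ime4 and pho92. For WT and pho92 at 5 and 6 h, where all 3 pairs were over 0.1, the compared libraries alone with a replicate block, a fit chosen after seeing the data, called 22 and 36 genes against the 16 and 32 reported. A fit that leaves out 1 replicate pools its spread with the other groups. With 3 libraries a group, differences near the spread of the replicates cannot be called, and a p that misses the threshold does not show equal levels.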
